A study of Mus musculus with 6 samples.

Results

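The REV-ERB and ROR genes of the mouse islet clock, Nr1d1, Nr1d2, Rora and Rorb, were followed across the day. They were chosen by name, and their probes by the RefSeq transcript printed for each probe in the scanner files. This gave 5 probes of 39429 on the array: 1 each for Nr1d1 (A_51_P223776, NM_145434), Nr1d2 (A_52_P303891, NM_011584) and Rora (A_55_P2078123, NM_013646), and 2 for Rorb (A_55_P2290388 and A_66_P118699, both NM_001043354). Pancreatic islets were isolated with collagenase from male C57BL6 mice, 8 weeks old and fed chow, in a day of 12 h light and 12 h dark. The 6 groups were ZT0, ZT4, ZT8, ZT12, ZT16 and ZT20, where ZT is zeitgeber time, lights came on at ZT0 and went off at ZT12. All groups shared strain, sex, age and diet. Each group was 1 array hybridised with Cy3-labelled RNA pooled from 3 to 5 mice, so no time point had a replicate and no pair of time points could be tested.

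REV-ERB alpha (encoded by Nr1d1) and REV-ERB beta (Nr1d2) are nuclear receptors that bind heme and repress transcription by recruiting the NCOR and HDAC3 corepressor complex. The ROR receptors (Rora and Rorb among them) bind the same DNA element, the ROR response element or RORE, and activate. Their opposition on Arntl, which encodes the activator BMAL1, forms the second loop of the circadian clock, while BMAL1 and CLOCK in turn drive Nr1d1 through E-box elements. In mouse tissues Nr1d1 RNA is known to be highest in the light phase and Arntl RNA around the end of the dark phase.

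The promoters below are those of both REV-ERB genes and of 2 of their target genes whose levels are set against them further on. They are from the RefSeq table for GRCm38.p6, 250 bases before to 50 bases after the start of transcription. Clock and Cry1, targets also followed further on, were searched as well and are not printed. Capitals mark a match to 1 of the motifs searched on both strands: CACGTG (E-box), CACGTT (a variant E-box), AGGTCA (a hexamer bound by nuclear receptors), TAGGTCA and TGGGTCA (that kind of hexamer with the preceding base of a RORE; TAGGTCA contains AGGTCA) and TTATGNAA (the D-box of DBP and NFIL3). The windows are chr11:98775328-98775627 (minus strand) for Nr1d1, chr14:18239057-18239356 (minus) for Nr1d2, chr7:113207261-113207560 (plus) for Arntl, at the second of its 2 listed starts, and chr13:52980990-52981289 (minus) for Nfil3.
Nr1d1: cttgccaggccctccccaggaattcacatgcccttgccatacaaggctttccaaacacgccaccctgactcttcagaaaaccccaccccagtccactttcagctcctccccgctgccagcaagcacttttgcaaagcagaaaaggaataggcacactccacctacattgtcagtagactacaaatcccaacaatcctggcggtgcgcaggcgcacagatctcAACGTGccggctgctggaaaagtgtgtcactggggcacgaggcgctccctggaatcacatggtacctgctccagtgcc
Nr1d2: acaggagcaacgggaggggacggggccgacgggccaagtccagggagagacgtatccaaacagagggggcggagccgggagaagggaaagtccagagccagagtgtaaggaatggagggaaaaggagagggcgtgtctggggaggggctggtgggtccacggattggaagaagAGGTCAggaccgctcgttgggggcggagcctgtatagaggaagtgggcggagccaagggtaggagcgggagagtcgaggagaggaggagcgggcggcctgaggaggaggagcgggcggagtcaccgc
Arntl: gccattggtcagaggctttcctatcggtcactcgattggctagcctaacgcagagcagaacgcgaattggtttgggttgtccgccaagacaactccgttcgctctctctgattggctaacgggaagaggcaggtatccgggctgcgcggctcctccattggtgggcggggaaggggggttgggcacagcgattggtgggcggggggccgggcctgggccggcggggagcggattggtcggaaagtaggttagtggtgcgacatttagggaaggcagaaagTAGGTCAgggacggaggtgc
Nfil3: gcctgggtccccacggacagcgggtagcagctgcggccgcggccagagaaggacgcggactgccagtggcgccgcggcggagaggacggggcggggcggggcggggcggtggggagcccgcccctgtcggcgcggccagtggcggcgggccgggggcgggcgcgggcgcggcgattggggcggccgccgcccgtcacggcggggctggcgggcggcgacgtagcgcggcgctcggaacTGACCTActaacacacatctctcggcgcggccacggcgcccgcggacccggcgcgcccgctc
Positions are counted from the start of transcription at 0. In Nr1d1 the match was CACGTT on the opposite strand, printed as AACGTG, at -28, and 4.69% of the 32817 promoter windows in the table held that motif. Nr1d2 held AGGTCA at -77, as did 16.3% of windows. Arntl held TAGGTCA at 30, and Nfil3 held it on the opposite strand at -12, against 2.61% of windows. The windows of Rora, of the first listed start of Rorb and of the first listed start of Arntl held none of these motifs. That of the second start of Rorb held CACGTT on the opposite strand at -234. Neither Cry1 nor any listed start of Clock held TAGGTCA or TGGGTCA. Cry1 held CACGTG at -60 and CACGTT on the opposite strand at -79. Clock held AGGTCA on the opposite strand at -119 of its last listed start, and none of the motifs at its other starts. These are matches of letters, not bound sites.

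Levels are given as log2 of the background-subtracted signal minus the 75th percentile of the array, so that 0 is the level of that percentile. They compare 1 probe between arrays and not 1 gene with another. The 75th percentile was 505.5 on the ZT4 array and 1229 to 2090 on the other 5, and 66.1% to 84.4% of spots were well above background. ZT8, ZT12, ZT16 and ZT20 were read in 1 scan of 1 slide, whereas ZT0 and ZT4 were each read in another scan. ZT0 was read on a later day than the other 5, and had 1743 spots flagged as outliers against 166 to 247 on these. Of 1414 probes left out of the rhythm test as outliers, 1371 were outliers on ZT0 alone. Errors on single levels are the error of 1 spot as given by the scanner software. They leave out differences between mice, pools and hybridisations. The rhythm test was a 24 h cosine fitted to the 6 arrays for 24127 genes, with limma's moderated F test adjusted over all of them. It called 0 genes (0%), with 965 genes (4%) at an unadjusted p under 0.05. Exact permutation of each gene called 0, with 605 genes (2.51%) at an unadjusted p under 0.05. Its smallest possible p is 0.0167, so after adjustment it could call a gene only if a large share of all genes sat at that minimum. Its 0 therefore adds nothing to the limma result. No gene named here passed, and with 3 residual degrees of freedom a failure to pass does not show a constant level. All 5 probes of the receptors spanned at least 4-fold between the highest and the lowest array, as did 48.7% of all genes tested, although with normexp background correction those of Rorb spanned 2.64-fold and 3.96-fold. In the 4 arrays of the shared scan 1 of the 5, that of Nr1d1, did so, against 25.2% of genes.

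Nr1d1, the gene of REV-ERB alpha, was highest at ZT8 and was not well above background on either late dark-phase array. From ZT0 to ZT20 its processed signals were 207.2 ± 21.0, 53.3 ± 6.3, 639.4 ± 64.3, 154 ± 16.9, 17.4 ± 7.3 and 24.6 ± 7.4 (error of 1 spot). After scaling, the levels were -3.25 ± 0.15, -3.25 ± 0.17, -1.71 ± 0.14, -3.43 ± 0.16, -6.14 ± 0.61 and -5.81 ± 0.43 log2 units in the same order. ZT8 stood alone at the top, ZT0, ZT4 and ZT12 lay within the spot error of their neighbours in rank, and the values at ZT16 and ZT20, printed as measured, have no order between them, since the lowest signals detected on these arrays lay above them, at -5.18 and -5.47.

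Relative to the lowest signal detected on those arrays, Nr1d1 was at least 11.1-fold higher at ZT8 than at ZT16 and at least 13.5-fold higher at ZT8 than at ZT20. The level at ZT8 was also 2.92-fold that at ZT0, 2.90-fold that at ZT4 and 3.29-fold that at ZT12. These bounds hold for the 75th percentile scaling of the processed signal; with normexp background correction the whole range of Nr1d1 was 4.85-fold. A range of at least 13.5-fold over the 6 arrays was found in 11.7% of all genes tested, and over the 4 arrays of the shared scan, which hold the whole range of Nr1d1, in 7.20%. The ZT8 array was the highest for 5.89% of genes.

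The cosine fitted to Nr1d1 had an amplitude (peak minus trough) of 4.05 ± 0.93 (SE) log2 units and a peak at ZT6.27, with an unadjusted limma p of 0.00984 and an adjusted p of 0.754. An F test without limma's shrinkage of the variance gave an unadjusted p of 0.0604. The exact permutation p over the 720 orders of the arrays was 0.117, where the smallest possible value is 0.0167. Raising the values at ZT16 and ZT20 to the detection limit, an alternative chosen after seeing the data, gave an amplitude of 3.32 ± 0.82 with the peak at ZT6.57 and an unadjusted limma p of 0.0134. The peak lay between ZT5.37 and ZT7.26 in the alternatives with a 24 h period. Without ZT8, ZT16 or ZT20 the unadjusted limma p was 0.0507, 0.0576 and 0.0542.

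Thra, which encodes a thyroid hormone receptor, overlaps the end of Nr1d1 from the other strand. Its bright probe (A_51_P475995) had levels of 1.62, 1.19, 1.14, 0.08, -0.29 and 0.06 from ZT0 to ZT20. The ZT0, ZT4 and ZT8 levels were each higher than any of the ZT12, ZT16 and ZT20 levels, and the level at ZT0 was 3.76-fold higher than that at ZT16. The amplitude was 1.88 ± 0.71 (SE) with a peak at ZT3.46 and an unadjusted limma p of 0.0876. The second Thra probe was not well above background on any array. ZT8 and ZT12, where the Nr1d1 level differed by 1.72 log2 units, differed by 1.07 for Thra. Whether labelled RNA of 1 gene reaches the probe of the other was not tested.

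**Figure D1:**
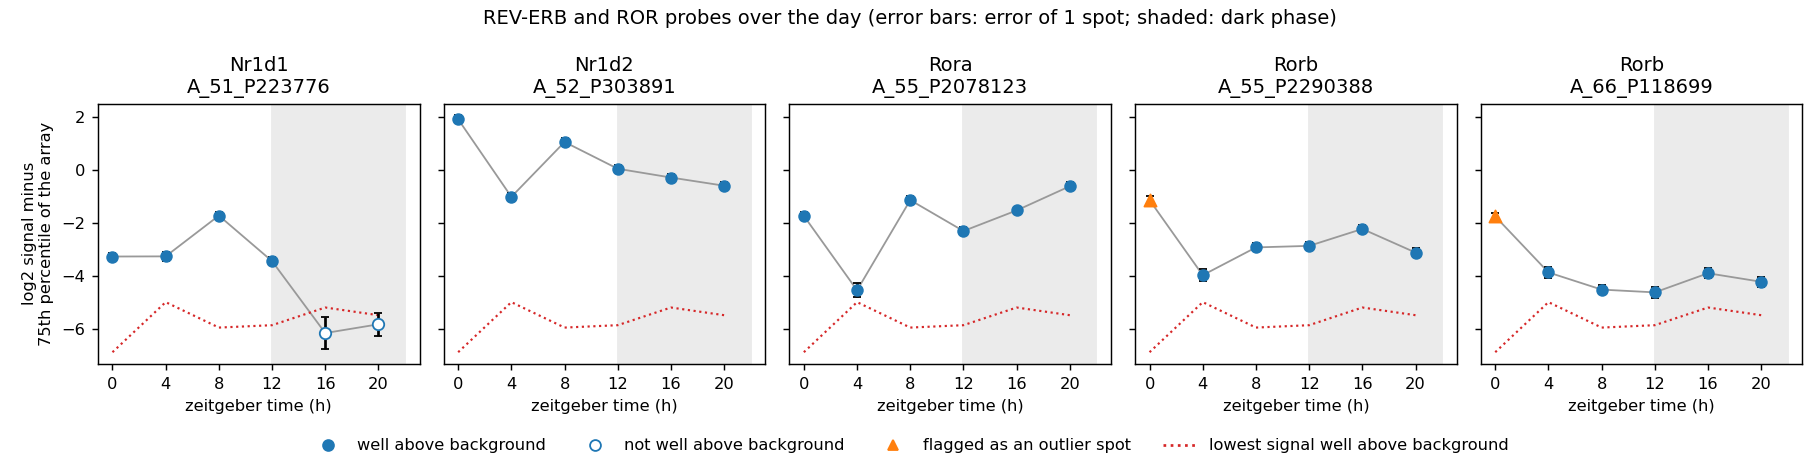
Level of each of the 5 probes (log2 signal minus the 75th percentile of the array, vertical axis) against zeitgeber time in hours, 1 array per point with the error of 1 spot as bars and the dark phase shaded. Nr1d1 is highest at ZT8 and its open symbols at ZT16 and ZT20 lie at or below the lowest detected signal, Rora is lowest at ZT4, and both Rorb probes are highest at ZT0, where the spots were flagged as outliers.

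Nr1d2, the second REV-ERB, was well above background on all 6 arrays. From ZT0 to ZT20 its levels were 1.93, -1.001, 1.07, 0.06, -0.27 and -0.58, each with a spot error of 0.144 to 0.145. ZT0 and ZT8 were high, ZT12, ZT16 and ZT20 were lower, and ZT4 was lowest. Both extremes thus lay on the 2 arrays read outside the shared scan. The highest, ZT0, was also the array with the most outlier spots, although the Nr1d2 spot on it was not flagged. All neighbours in rank differed by more than their spot error.

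The level of Nr1d2 was 7.60-fold higher at ZT0 than at ZT4, a range reached by 23.2% of genes. ZT0 was the highest array for 21.5% of genes and ZT4 the lowest for 17.4%. Over the 6 arrays its amplitude was 0.70 ± 1.23 (SE) with a peak at ZT3.31 and an unadjusted limma p of 0.854 (adjusted 0.938, exact permutation p 0.917). Without the ZT4 array the amplitude was 2.75 ± 0.98 at ZT3.83, with an unadjusted limma p of 0.0933. Without ZT0 it was 1.64 ± 1.05 with the peak at ZT10.7.

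Within the shared scan both REV-ERB genes were highest at ZT8. Nr1d2 was lower at each step from ZT8 to ZT20, as were 2.15% of genes, and was 3.14-fold higher at ZT8 than at ZT20, a range reached by 32.7% of genes in these 4 arrays. Nr1d1 was at least 13.5-fold higher at ZT8 than at ZT20. The difference between Nr1d1 and Nr1d2 on the same array, centred on its mean over the 6 arrays, was -1.26, 1.67, 1.14, 0.43, -0.99 and -0.97 from ZT0 to ZT20. A factor that scales a whole array cancels in such a difference. Before centring, the differences at ZT16 and ZT20 are upper bounds, because Nr1d1 was below detection there. The mean used for centring includes these arrays, so all 6 centred values depend on where the detection limit lay.

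Rora, which encodes the activator ROR alpha, was set apart by 1 array. From ZT0 to ZT20 its levels were -1.72 ± 0.14, -4.53 ± 0.27, -1.12 ± 0.14, -2.29 ± 0.15, -1.51 ± 0.15 and -0.60 ± 0.14 (error of 1 spot). ZT20 was highest, ZT12 was low, and ZT4 was far below all the others. The signal at ZT4 was 21.9 ± 4.1, close to the lowest signal detected on that array, 16.1.

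The ZT20 level of Rora was 15.2-fold that at ZT4, a range reached by 10.2% of genes, 2.17-fold that at ZT0 and 1.44-fold that at ZT8. ZT20 was the highest array for 14.9% of genes. The amplitude was 2.09 ± 1.27 (SE) with a peak at ZT17.2 and an unadjusted limma p of 0.318 (adjusted 0.754, exact permutation p 0.60). Without ZT4 the amplitude was 0.64 ± 0.83 with the peak at ZT22.6, and with scan as a covariate the peak moved to ZT0.88. Without ZT8 it was 3.95 ± 0.98 at ZT18.6, with an unadjusted limma p of 0.0218, in a fit where 4026 genes had one under 0.05. With a background correction by normexp the range was 4.44-fold in place of 15.2-fold.

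Rorb, known mainly from retina and brain, had both probes well above background on all 6 arrays, but both spots on the ZT0 array were flagged as non-uniform, so neither entered the rhythm test. The first probe had levels of -1.13, -3.96, -2.91, -2.85, -2.21 and -3.10 from ZT0 to ZT20. The second had -1.74, -3.85, -4.50, -4.61, -3.88 and -4.21. Both were highest on the flagged ZT0 array, at 3.44-fold and 6.78-fold above ZT8.

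Away from ZT0 the Rorb probes differed from each other. The first was highest at ZT16 and lowest at ZT4, with a 3.35-fold range. The second was highest at ZT4 and lowest at ZT12, with a 1.69-fold range in which ZT4 and ZT16 lay within the spot error. The difference between the probes on the same array varied over a 3.63-fold range. In the shared scan alone their ranges were 1.86-fold and 1.65-fold, where 63.2% and 74.4% of genes had at least as large a range. With outlier spots kept, the amplitudes were 1.03 ± 1.07 (SE) and 2.02 ± 0.96, with unadjusted limma p values of 0.65 and 0.176. Within that scan both probes were highest at ZT16, which was 1.56-fold and 1.65-fold above ZT12, more than the spot errors.

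The balance of repressor and activator on each array was followed as the difference between Nr1d1 and Rora. Centred on its mean it was 0.22, 3.03, 1.17, 0.61, -1.91 and -3.12 from ZT0 to ZT20. It was thus highest at ZT4, where Rora was near detection, and lowest at ZT20. The 70.9-fold span between these arrays is a lower bound. For Nr1d2 minus Rora the values were 1.48, 1.36, 0.03, 0.19, -0.92 and -2.14, a 12.3-fold span with the same lowest array. In both differences ZT16 and ZT20 were the lowest arrays.

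Arntl, the best known target of these receptors, was highest at ZT16 and ZT20, the arrays where Nr1d1 was below detection, and lowest at ZT4. From ZT0 to ZT20 its levels were -0.59, -1.22, -0.82, 0.34, 0.37 and 1.37. They were higher at each step of the shared scan, as in 3.98% of genes, although ZT12 and ZT16 lay within the spot error and changed places with median scaling. Nr1d1 minus Arntl was 0.96, 1.60, 2.73, -0.15, -1.93 and -3.21 from ZT0 to ZT20, a span of at least 61.7-fold. Nr1d2 minus Arntl was highest at ZT0 (2.22) and lowest at ZT20 (-2.24), a 22-fold span. Rora minus Arntl was highest at ZT8 (1.57) and lowest at ZT4 (-1.43), with -0.02 and -0.10 at ZT16 and ZT20.

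**Figure D2:**
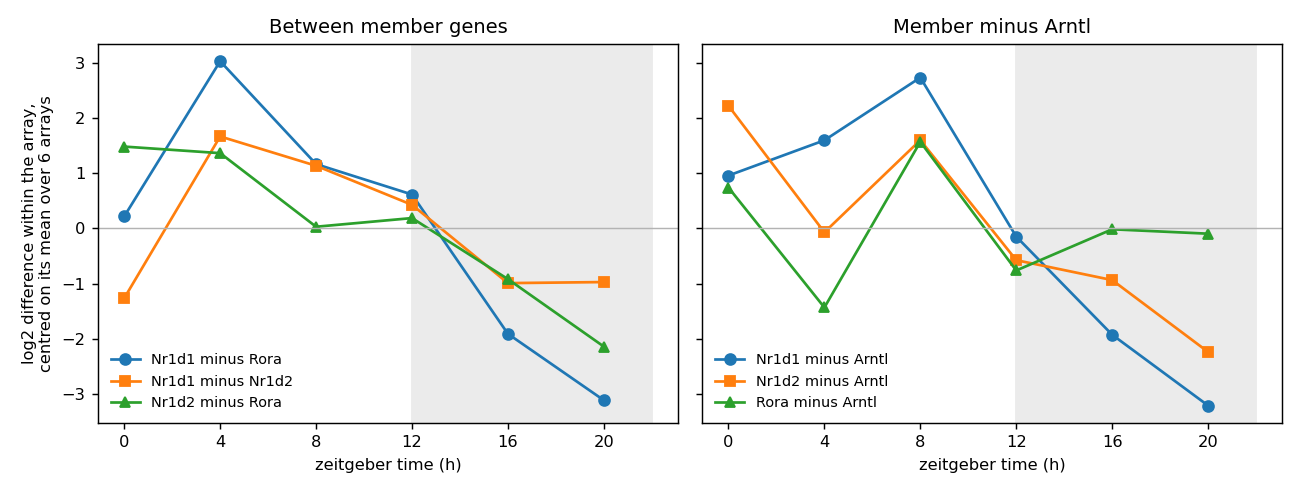
Difference in log2 level between 2 genes on the same array, centred on its mean over the 6 arrays (vertical axis, log2), against zeitgeber time in hours; the left panel sets member genes against each other and the right panel sets each against Arntl. Nr1d1 minus Arntl is highest at ZT8 (2.73) and lowest at ZT20 (-3.21), and Nr1d1 minus Rora is highest at ZT4 (3.03).

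Of 16 genes listed as targets at RORE sites, 13 were tested, and 0 passed in either direction, with 0 at an unadjusted limma p under 0.05. Their medians, as deviation from each gene's mean, were -0.21, -0.43, -0.38, -0.55, 0.70 and 1.11 from ZT0 to ZT20, while those of all genes tested lay between -0.05 and 0.06. Cry1, a repressor of BMAL1, stood at 0.84 at ZT16 and 1.02 at ZT20 above its mean, with an amplitude of 2.09 ± 0.73 (SE) at ZT16.0 and an unadjusted limma p of 0.0678. Nfil3, whose product competes with DBP, was at 0.75 and 1.56 on these arrays and had 2.15 ± 0.89 at ZT19.4. Clock, the partner of BMAL1, was highest at ZT0 (1.44) and lowest at ZT4 (-2.57), the array on which Rora was also lowest.

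Apoc3, an apolipoprotein gene of liver, was 6.65 above its mean at ZT20 and had the largest range among these 13 targets, 8.72 log2 units, with an exact permutation p of 0.05. On the same array the hepatocyte marker Alb was 8.68 above its mean, and the 3 of 5 hepatocyte markers tested had a median deviation of 7.70, against -1.80 to -0.93 on the other arrays. The part of liver RNA in the ZT20 value of Apoc3 was not tested. Insig2, a brake on sterol synthesis, was at 0.70 at ZT16 and 0.80 at ZT20 (amplitude 1.49 ± 0.73). Lpl, lipoprotein lipase, was at 1.87 at ZT20 and -2.03 at ZT4 (2.60 ± 1.13).

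**Figure D3:**
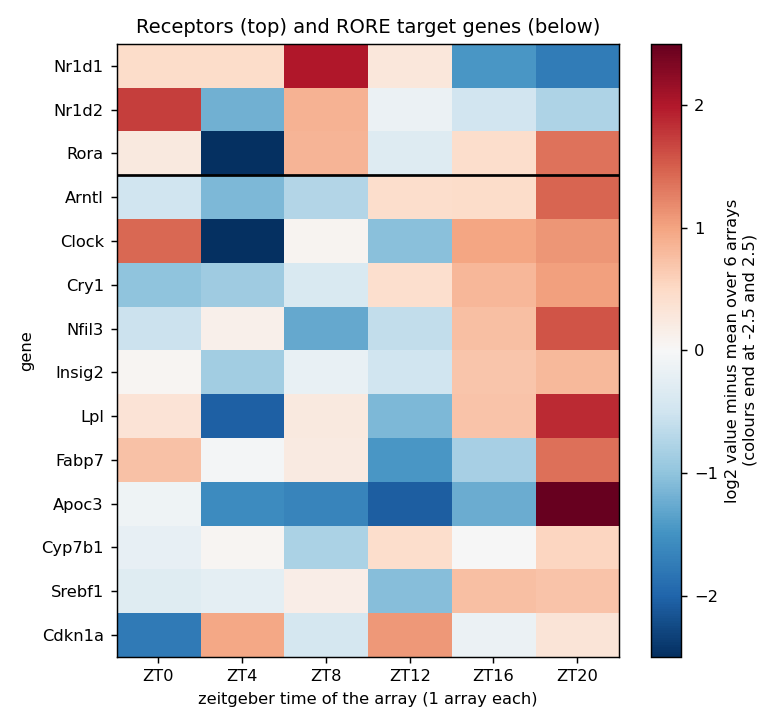
Level of each gene minus its mean over the 6 arrays (colour, log2 units, ending at -2.5 and 2.5), with 1 column per zeitgeber time; the receptors with a tested probe are above the line and RORE target genes below it. Arntl, Cry1 and Nfil3 are above their mean at ZT16 and ZT20, where Nr1d1 is lowest.

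Among the clock factors that act on the receptor genes through E-boxes, 9 of 11 were tested and 0 passed, with 0 at an unadjusted limma p under 0.05. Arntl and Cry1, given above, had the smallest unadjusted p of this list. Per2, a repressor, had an amplitude of 3.43 ± 1.47 (SE) at ZT16.3 with an unadjusted limma p of 0.133, and was at least 3.53 below its mean at ZT4. Its measured level there, -5.03, lay below the lowest signal detected on that array, -4.97, and the amplitude rests on that measured level. All 4 D-box factors were tested. Dbp, an activator driven by BMAL1, was the gene among them with an unadjusted limma p under 0.05 (0.0419), with an amplitude of 2.73 ± 0.85 at ZT6.03, beside ZT6.27 for Nr1d1, and Tef, of the same family, had 1.07 ± 0.73 at ZT6.16. Hlf, also of this family, had 0.67 ± 1.03 at ZT20.9. Peaks near that of Nr1d1 were also found among the lymphocyte markers, given below.

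The 6 corepressor genes were all tested, with 0 passing, and had a median range of 1.07 log2 units, beside 1.97 over all genes tested. Ncor1, the main corepressor of REV-ERB, was within 0.53 of its mean on every array and highest at ZT20; its amplitude was 1.14 ± 0.66 (SE) at ZT20.7 with an unadjusted limma p of 0.291, although the cosine order gave the smallest exact permutation p possible, 0.0167. Hdac3, the deacetylase of the complex, had 0.56 ± 0.76. Of 7 coactivator genes 6 were tested and 0 passed, with a median range of 2.52; Ppargc1a, a coactivator of ROR alpha, had 1.86 ± 0.92 and Crebbp, an acetyltransferase, 1.54 ± 0.82.

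Heme is a ligand of REV-ERB, and all 12 genes of its synthesis and breakdown were tested, with 0 passing. Their median range was 1.80 log2 units. Alas1, the rate-limiting step of synthesis, had an amplitude of 0.25 ± 0.84 (SE), and Fech, which inserts iron, 0.16 ± 0.79. Hmox1, which degrades heme and is induced by stress, had the widest range of the list, 4.83, from -2.23 at ZT12 to 2.59 at ZT16 around its mean. Blvrb, a biliverdin reductase, had the smallest unadjusted limma p, 0.0978, and was highest at ZT4 (2.42). Of the 8 genes that set the stability of REV-ERB protein, 8 were tested and 0 passed. Their median range was 1.35; Cdk1, a cell cycle kinase, had the smallest unadjusted limma p, 0.181, and Fbxw7, a ubiquitin ligase subunit that targets REV-ERB alpha, stayed within 0.29 of its mean.

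Cell type markers differed between the same arrays. All 10 endocrine markers, among them Ins1, Ins2, Gcg and Pdx1, were tested, and 9 or 10 were well above background on every array. Their median deviations from ZT0 to ZT20 were 1.01, -1.15, 0.23, -2.38, 0.97 and 0.98, and their summed signal, in units of the 75th percentile, was 482 at ZT12, 1205 at ZT4 and 1350 at ZT0. The endocrine median was lowest at ZT12 and then ZT4, and the 2 lowest levels of Rora were also on these arrays, with ZT4 lower. The list was not uniform at ZT4: the insulin genes Ins1 and Ins2 were 0.92 and 1.17 above their means there, each on its highest array, whereas Pdx1 was at -1.85. The part of endocrine cells in the level of Rora was not tested. In a fit without ZT4 and ZT12, chosen after seeing the data, the amplitude of Rora was 0.27 ± 0.93 (SE) and that of Nr1d1 5.26 ± 0.68; the arrays left out are the lowest 2 of Rora and neither extreme of Nr1d1, so this sets the genes apart by construction. RNA of pooled islets cannot tell fewer cells of a type from less RNA per cell.

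The 9 lymphocyte markers, all tested and all well above background on every array, had median deviations of -0.19, 2.33, 0.90, 2.12, -2.94 and -2.66 from ZT0 to ZT20, and a summed signal of 14.7 at ZT20 to 291.2 at ZT4. Of these, 0 passed the rhythm test and 6 had an unadjusted limma p under 0.05, beside 4% of all genes. The peaks of those 6 lay between ZT6.01 (Ms4a1) and ZT7.07 (Cd3d), beside ZT6.27 for Nr1d1. The 5 of 6 macrophage markers tested had medians of 1.45 and 1.60 at ZT4 and ZT12 and of -1.60 and -1.36 at ZT16 and ZT20, and the 6 stromal markers -1.55 at ZT16 and -1.50 at ZT20. Nr1d1 was thus at background at ZT16 and ZT20, which had the 2 lowest medians in each list. Single markers did not all follow: Cd3e was at 0.19 at ZT16, and Cd14 was lowest at ZT0 (-0.59). Cd79a was lower at ZT0 (-0.97) than at ZT20 (-0.72), and Lyz2 was lower at ZT4 (-2.135) than at ZT20 (-1.36). The other lymphocyte, macrophage and stromal markers tested had their lowest levels at ZT16 and ZT20. The lymphocyte median was lower at ZT8 than at ZT4 or ZT12, and the level of Nr1d1 was higher at ZT8 than on either of these arrays. Some markers rose from ZT4 to ZT8, as Nr1d1 did. These were Ptprc (-1.32 to 1.88 around its mean), Cd79a (0.46 to 1.13), Lyz2 (-2.135 to 2.30) and Cd14 (-0.50 to 0.61). The other lymphocyte and macrophage markers tested fell. The part of lymphocytes, macrophages and stromal cells in the level of Nr1d1 was not tested.

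**Figure D4:**
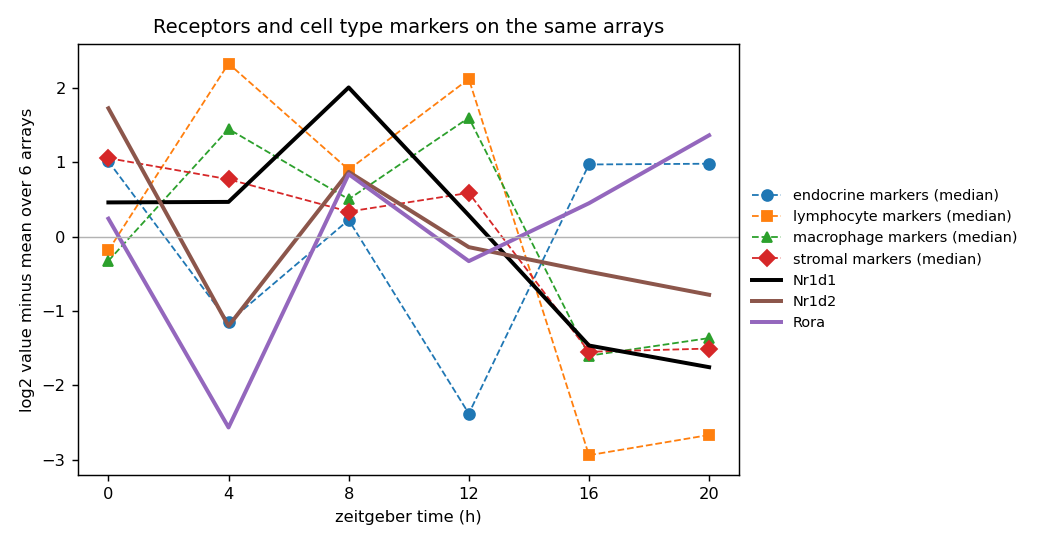
Deviation from the mean over the 6 arrays (vertical axis, log2) against zeitgeber time in hours, for Nr1d1, Nr1d2 and Rora (solid lines) and for the median of 4 marker lists (dashed lines). Lymphocyte, macrophage and stromal medians are lowest at ZT16 and ZT20, where Nr1d1 is lowest, and the endocrine median is lowest at ZT12 and then ZT4, where Rora is low, although Ins1 and Ins2 are highest at ZT4.

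The genes most like each receptor were taken from 13843 genes well above background on all arrays, by the mean absolute difference between centred log2 levels over the 6 arrays. For Nr1d1 these were Myc (0.35 log2 units), Pakap (0.40) and Ptpn7 (0.41) with the levels at ZT16 and ZT20 as measured. With these raised to the detection limit, an alternative chosen after seeing the data, the nearest were Sfrp1 (0.29), Mfap4 (0.37) and Loxl1 (0.38). Myc, Pakap and Ptpn7 then ranked 17, 14 and 10, at 0.46 to 0.47. The nearest genes of Nr1d1 thus depend on values below background. For Nr1d2 they were Gja5 (0.17) and Cd99l2 (0.24), and for Rora Zhx1 (0.14), Atp6v1h (0.15) and Abraxas2 (0.22). The 2 Rorb probes shared none of their nearest genes: Gm13375, Stum and Rtn4ip1 (0.18 to 0.19) for the first, and Epas1, Ogdh and Zbtb7b (0.08 to 0.16) for the second. These are descriptions over 6 arrays.

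**Figure D5:**
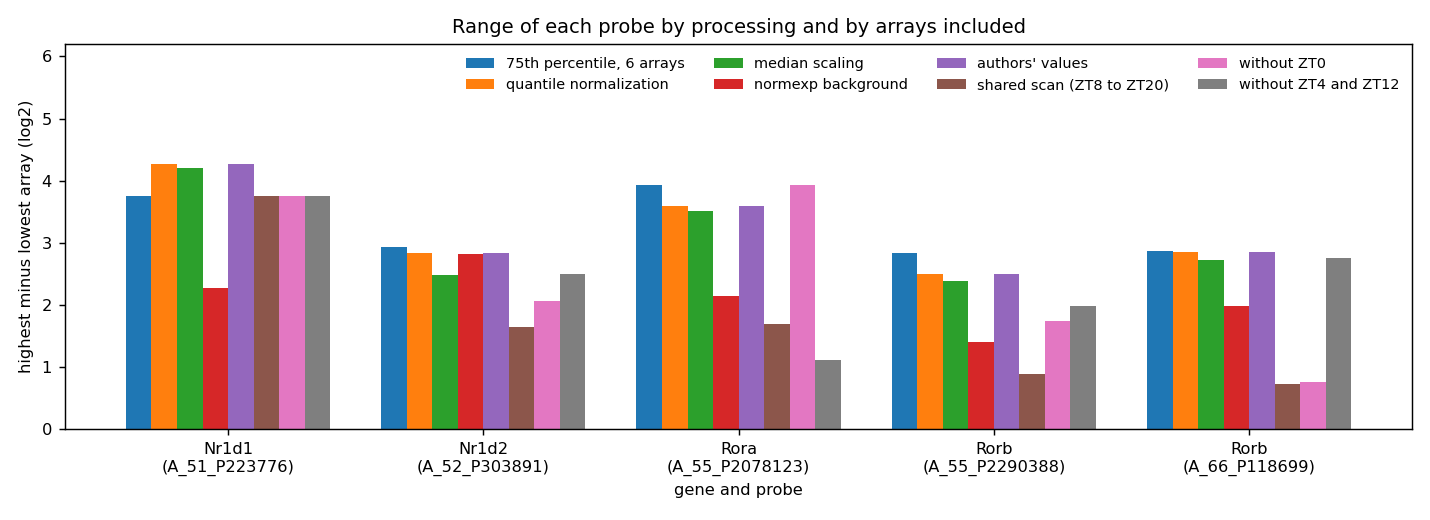
Highest minus lowest array (vertical axis, log2 units, from 0) for each probe, by bars for each way of scaling and each set of arrays; for Nr1d1, values at ZT16 and ZT20 are raised to the detection limit in the 75th percentile scaling and are as measured in the other scalings. The range of Nr1d1 is 3.76 in the 4 arrays of the shared scan as in all 6, while those of Nr1d2, Rora and both Rorb probes are 0.72 to 1.69 there, against 2.83 to 3.93 over 6 arrays.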

How the data were processed

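Expression was measured on 6 one-colour Agilent arrays, 1 per zeitgeber time, of cRNA made with the Quick Amp kit. The scanner files came from Agilent Feature Extraction 11.0.1.1, per the submitters' processing notes. Per the file headers, it made the processed signal, a linear intensity background-subtracted within each array; the deposited median spot and local background intensity and the flags of 0 or 1 were also used. The authors' deposited value table held log2 values of 30170 probes whose columns shared a distribution; the steps behind it are not given in the sources used here.

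Control spots were removed, spots not flagged as outliers were averaged per probe, and log2 values were scaled to the 75th percentile of the array. Gene symbols came from RefSeq names (GRCm38.p6, used for names and promoter windows), matching 27234 probes (69.1%). Probes were tested when well above background on at least 3 arrays and not an outlier on any, 28795 probes; the probe of highest mean stood for a gene. A 24 h cosine was fitted with limma 3.58.1 in R 4.3.3 with Benjamini-Hochberg adjustment over all genes and a threshold of 0.05, and the exact permutation test used all 720 orders of the arrays. The code of the fit was tried on simulated data with known cosines. Their noise was set and not taken from these arrays, so the trial does not measure the power of the fit here. Bounds used the lowest signal well above background on the array. For bounds, ranges, deviations from the mean and within-array differences, values below that limit were raised to it.

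Genes named were all members, Thra, up to 4 genes of each list by smallest unadjusted p (Arntl, Clock, Cry1 and Nfil3 first among targets) and the 3 genes most like each member (some genes of these rules are not reported here); Insig2, Lpl, Apoc3, Alas1, Fech, Hmox1, Fbxw7 and the marker genes named fall outside this rule and were chosen after their values were seen. The members and lists were chosen with earlier results of these data known. Normexp used the median spot signal and local background with an offset of 50. The number of arrays limits the precision, and p-values measure the spread of these pools around a cosine.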

Additional observations from a re-analysis of the deposited data

How the results depend on the processing

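No paired analysis was possible because each time point was 1 pool on 1 array. In the 24 h fit 0 genes were called under all alternatives, scan as a covariate, the authors' values and each array left out included; the 965 genes at an unadjusted p under 0.05 became 347 without ZT20, 417 without ZT16, 2452 without ZT12, 4026 without ZT8, 2742 without ZT4 and ZT12, 440 with scan as a covariate (1 residual degree of freedom), 246 with a period of 20 h and 1590 with 28 h. The 0 of the exact permutation test was nearly fixed in advance by its smallest possible p of 0.0167. With 1 array left out the amplitude was 3.48 to 5.20 for Nr1d1, 0.53 to 2.75 for Nr1d2 and 0.64 to 3.95 for Rora. In 74 of 74 combinations of a gene and an alternative the gene again did not pass, which says nothing about stability. The peak moved over 6 h from that of the 24 h fit for Nr1d2 without ZT0 and for Rora with scan as a covariate. For ranges between the highest and the lowest array, 23 of 35 moved by more than the error of the spots. The lowest array of the second Rorb probe was ZT8 in place of ZT12 with quantile, median and normexp scaling and in the authors' values, and that of the first was ZT8 in place of ZT4 with normexp. Quantile normalization gave 4.26 for Nr1d1, 3.59 for Rora and 2.495 for the first Rorb probe (log2), and the authors' values 4.26, 3.595 and 2.495. Median scaling gave 2.49 for Nr1d2, 3.52 for Rora and 2.39 for the first Rorb probe. For Nr1d1 these ranges are of measured values, whose range in the 75th percentile scaling was 4.43, whereas 3.76 has ZT16 and ZT20 at the detection limit. With normexp background correction the ranges were 2.28 for Nr1d1, 2.15 for Rora, 1.40 for the first Rorb probe and 1.99 for the second; the offset of 50 added before the log narrows ranges of dim probes. The shared scan alone gave 1.65 for Nr1d2, 1.69 for Rora, 0.89 and 0.72 for the Rorb probes. Leaving out ZT0 gave 2.07 for Nr1d2 and 1.75 and 0.75 for the Rorb probes. Without ZT4 and ZT12 the ranges were 2.51 for Nr1d2, 1.12 for Rora and 1.98 for the first Rorb probe. Fewer arrays can narrow a range and cannot widen it; for the scalings the cause was not tested. Nr1d1, Rora and Nr1d2 had 1 probe each, so no other probe could replace theirs, and Nr1d1 has no value where all 6 arrays must be well above background.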
